A study of Rattus norvegicus with 24 samples.

Results

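The nuclear-encoded genes of mitochondrial oxidative phosphorylation (OXPHOS) were followed in rat lung after whole-cigarette smoke condensate (WCSC). They were taken by symbol: every gene whose name begins with Nduf, Uqcr, Atp5, Cox4, Cox5, Cox6, Cox7 or Cox8, the 4 Sdh genes, and Cmc1. The rule found 88 genes among the 16881 distinct symbols of the count tables, and 86 of them had enough reads to be among the 11351 genes tested. Cmc1 differs from the other 87 in how it came in: it was added because an earlier look at these same libraries had shown a small p-value for it, so its values, in every comparison that uses the day 6 libraries, are a description and no independent evidence.

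The study holds 24 samples of lung tissue from rats of wild-type genotype, in 8 groups of 3. At day 6 and at day 12 there was 1 control group and 1 group each for WCSC at 5, 10 and 20 mg/mL. WCSC is the material trapped from whole cigarette smoke. The labels call the 2 untreated groups only controls, and the route of dosing, vehicle, strain, age and sex of the animals were not stated in those labels. They number the replicates of each group but do not say whether each number is a separate animal, so the p-values below measure the spread between samples. Each library was a count of reads at the 3′ ends of polyadenylated RNA (QuantSeq). Reads per gene are given as CPM, the count over the TMM-scaled library size on the usual CPM scale, and since a 3′ count carries no gene length, levels are compared only within a gene or a fixed set of genes, never between genes.

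OXPHOS is the last stage of respiration in the inner mitochondrial membrane. Complex I takes electrons from NADH and complex II takes them from succinate. Both hand them to coenzyme Q, from which complex III passes them to cytochrome c and complex IV to oxygen, while ATP synthase uses the proton gradient built on the way to make ATP. Most subunits are encoded in the nucleus and a few core ones in mitochondrial DNA, and separate assembly factors put the complexes together. In lung, alveolar type II cells, which make surfactant, are rich in mitochondria. Several subunits of complex IV exist in a general form and in a form kept for heart and skeletal muscle or, for Cox4i2, for lung and other oxygen-sensing tissue. NRF1 and the ETS factor GABPA (also called NRF2) are known activators of nuclear OXPHOS genes, and MEF2 and E-box-binding MyoD-family factors are known activators of muscle genes.

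By complex, the rule took 36 genes of complex I, 6 complex I assembly factors (the Ndufaf genes), 4 of complex II, 8 of complex III, 16 of complex IV, 17 of ATP synthase and the complex IV assembly factor Cmc1. The grouping follows the symbols. Ndufa4 is now regarded as part of complex IV, and Atp5s and Atp5sl are not structural subunits of the enzyme. The 2 genes left untested were both named for complex IV. Cox8c, a testis form, had 0 reads in all 24 libraries, where a count of 0 allows a level of up to 0.28 to 0.64 CPM per library. The pseudogene Cox6c-ps1 had 18 reads in 9 libraries. Cox7a1, Cox6b1, Cox7b2 and the subunits encoded in mitochondrial DNA were not analysed here. OXPHOS genes are known for processed pseudogenes of near-identical sequence, and how reads matching more than 1 place were counted is not stated, so the level of a single gene is uncertain to that extent.

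The stretch upstream of 4 of the genes is printed because the results below turn on them or because they show a shared feature. They were chosen after their values had been seen. Cmc1 had the smallest p-values of the set at day 6, Ndufs5 is a complex I subunit with the same NRF1 letters upstream, and Cox6a2 and Cox8b are the muscle forms that stood out in 1 library. Each line gives the 250 bases before the annotated start of the gene, 5′ to 3′ on the gene's own strand, from the RefSeq promoter table of build GRCr8. Capitals mark the motif matches named after the lines.
Cmc1: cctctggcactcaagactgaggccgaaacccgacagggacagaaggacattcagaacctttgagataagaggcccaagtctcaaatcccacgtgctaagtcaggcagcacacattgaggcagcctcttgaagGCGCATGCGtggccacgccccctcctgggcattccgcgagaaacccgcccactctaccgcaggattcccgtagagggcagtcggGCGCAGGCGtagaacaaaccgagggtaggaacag
Ndufs5: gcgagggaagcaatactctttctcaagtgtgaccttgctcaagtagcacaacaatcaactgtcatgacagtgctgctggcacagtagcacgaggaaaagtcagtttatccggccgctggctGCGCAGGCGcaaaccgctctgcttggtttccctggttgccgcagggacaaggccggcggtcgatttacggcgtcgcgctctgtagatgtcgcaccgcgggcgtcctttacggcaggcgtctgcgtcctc
Cox6a2: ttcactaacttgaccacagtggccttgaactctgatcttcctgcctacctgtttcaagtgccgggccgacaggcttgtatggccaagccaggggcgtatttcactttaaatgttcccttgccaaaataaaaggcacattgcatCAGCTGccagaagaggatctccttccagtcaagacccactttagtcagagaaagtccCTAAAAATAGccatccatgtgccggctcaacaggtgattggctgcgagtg
Cox8b: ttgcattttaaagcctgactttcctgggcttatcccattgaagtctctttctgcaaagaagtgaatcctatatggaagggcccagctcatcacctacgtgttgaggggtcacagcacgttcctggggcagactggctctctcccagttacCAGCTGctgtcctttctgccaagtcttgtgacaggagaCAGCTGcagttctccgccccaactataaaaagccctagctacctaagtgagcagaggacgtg

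The 4 stretches lie on the minus strand of GRCr8, at chr8:126735564-126735813 for Cmc1, chr5:141264403-141264652 for Ndufs5, chr1:192219717-192219966 for Cox6a2 and chr1:205408274-205408523 for Cox8b. In Cmc1 the capitals are the NRF1 matches GCGCATGCG and GCGCAGGCG, beginning 118 and 34 bases before the start. In Ndufs5 they are the NRF1 match GCGCAGGCG, 129 bases before the start. In Cox6a2 they are an E-box, CAGCTG, 107 bases before the start and the letters of the MEF2 motif 50 bases before it. In Cox8b they are E-boxes beginning 100 and 62 bases before the start.

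Of the 88 genes, 75 had a promoter in the table, 60 by their symbol and 15 by a synonym. The NRF1 letters GCGCANGCG, searched on both strands, were in 18 of the 75 (24%) and in 5.53% of all 27457 promoters of the same length. The ETS letters CCGGAAG were in 19 (25.3%) against 7.74% of all promoters. At least 1 of the 2 was in 34 of the 75 (45.3%) against 12.3%, and both were in 3. The promoters with NRF1 letters included Sdha, Uqcrc1, Atp5o, Ndufs6 and Ndufaf5, and those with ETS letters included Sdhb, Sdhd, Uqcrh, Cox5b and Ndufs1. The ERR letters TCAAGGTCA were in 1.33% against 0.368%, the YY1 letters AANATGGCG in 2.67% against 1.45%, and the E-box CAGCTG, which reads the same on both strands, in 12% against 11.9%. The MEF2 motif, in the letters capitalised for Cox6a2, was in Cox6a2 alone of the 75 (1.33%), against 0.12% of all promoters. No 2 different motifs overlapped in any of the 75. These are matches of letters in a window and were not measured as binding.

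Library depth ran from 4795670 to 11109700 reads counted to genes, with a median of 6840820. The libraries held lung RNA by their markers: summed over each list, type I cell markers lay between 2985 and 10686 CPM, type II markers between 7343 and 29194, club and goblet markers between 3166 and 19533 and endothelial markers between 959 and 2502. Thinned to the same 4693130 reads, 8 libraries had the fewest detected genes, between 11379 and 11673, while the other 16 had between 11856 and 12394. These 8 were control replicate 1, both 5 mg/mL and 10 mg/mL replicates 1 and 2, and 20 mg/mL replicate 2 at day 6, and control replicate 1 and 20 mg/mL replicate 3 at day 12. They are not a group of the study, and the set's median at each dose below is also given without them. The medians by complex, the pathway lists and most single genes are given with all libraries only. Without the 8 libraries the day 6 groups at 5 and 10 mg/mL keep 1 library each and the other day 6 groups keep 2.

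The OXPHOS genes were high together in particular libraries, which came from more than 1 group. At day 6 the mean log2 CPM of the 86 genes was 6.69, 6.14 and 6.15 in the 3 controls, 6.92, 6.89 and 6.23 at 5 mg/mL, 6.94, 6.72 and 6.20 at 10 mg/mL, and 6.54, 6.47 and 6.30 at 20 mg/mL. The high libraries were replicate 1 of the controls and replicates 1 and 2 of the 5 and 10 mg/mL groups, and the third replicate of each of these 2 groups lay among the controls. The groups overlapped, and each contained a library as low as 6.30 or lower.

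At day 12 the same mean was 6.24, 6.33 and 6.27 in the controls, 6.46, 6.36 and 6.26 at 5 mg/mL, 6.36, 6.42 and 6.13 at 10 mg/mL, and 6.23, 6.58 and 6.57 at 20 mg/mL. The day 12 groups overlapped as well, and replicates 2 and 3 at 20 mg/mL were the highest of that day. As a share of all scaled counts, the genes took between 1.08% and 2.15% of a library, with group means from 1.23% ± 0.05 (SD, n = 3) in the day 12 controls to 1.75% ± 0.57 at 5 mg/mL on day 6.

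**Figure D1:**
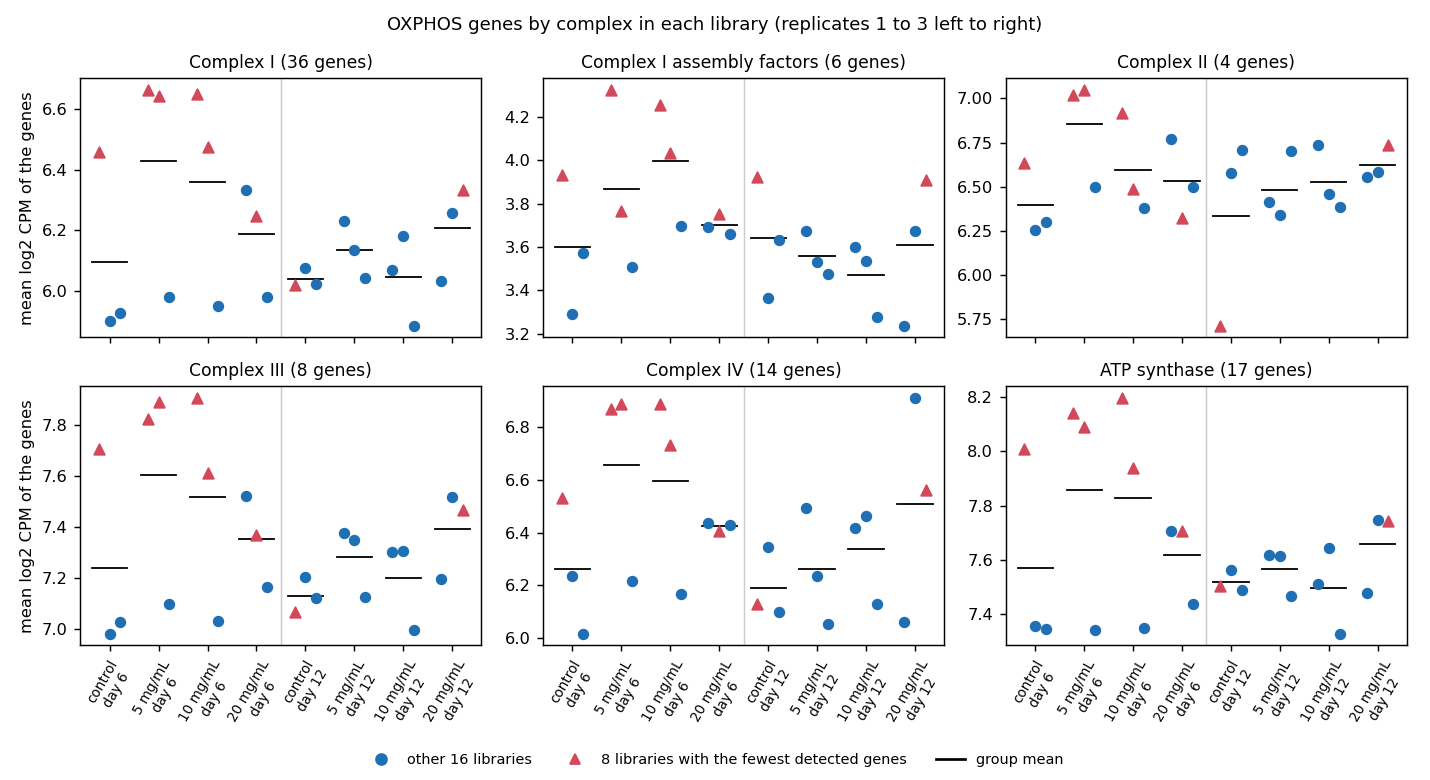
Mean log2 CPM of the OXPHOS genes of each complex (vertical axes, 1 panel per complex) in the 24 libraries, by dose and day, with replicates 1 to 3 from left to right. Triangles are the 8 libraries of lowest gene detection, circles the other 16, and black lines group means. In complexes I and III and ATP synthase the day 6 triangles of the control, 5 mg/mL and 10 mg/mL groups lie above all circles of those groups.

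The complexes followed the same libraries. Complex I stood at 6.46, 5.90 and 5.93 mean log2 CPM in the day 6 controls and at 6.66, 6.64 and 5.98 at 5 mg/mL. Complex III stood at 7.70, 6.98 and 7.02 in those controls and at 7.91, 7.61 and 7.03 at 10 mg/mL. ATP synthase stood at 8.01, 7.35 and 7.34 in the controls and at 8.20, 7.94 and 7.35 at 10 mg/mL. In each of these the first control sat with the high treated libraries and the third treated replicate with the low controls. Complex II departed from this in 1 library: control replicate 1 of day 12 was the lowest of the 24 at 5.71, while the other 2 controls of that day were at 6.58 and 6.71. Sdhd, the membrane anchor of complex II that helps bind coenzyme Q, was at 9.66 CPM there against 51.6 and 91.8 in the other controls, and Sdhc, the other anchor, at 71.7 against 130.5 and 126.2.

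Gene by gene, the highest of the 24 libraries was one of the 8 for 76 of the 86 OXPHOS genes (88.4%), and for 45.3% of all genes tested. The lowest library was one of the 8 for 17 of the 86 (19.8%), and for 52.5% of all genes. Replicate 1 at 10 mg/mL was the highest for 28 of the genes, replicate 2 at 5 mg/mL for 21 and replicate 1 at 5 mg/mL for 17, all at day 6. The 10 genes with their highest value elsewhere were Atp5a1, Ndufa8, Ndufa10, Ndufa10l1, Ndufab1, Ndufs1, Ndufa4l2, Cox4i2, Cox6a2 and Cox8b. Ndufs1, the largest core subunit of complex I, shows the contrast with most of the set: at day 6 it was at 9.2, 8.7 and 9.0 CPM in the controls and at 2.8, 8.9 and 10.1 at 10 mg/mL, so its lowest value was in the library where the set was highest.

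**Figure D2:**
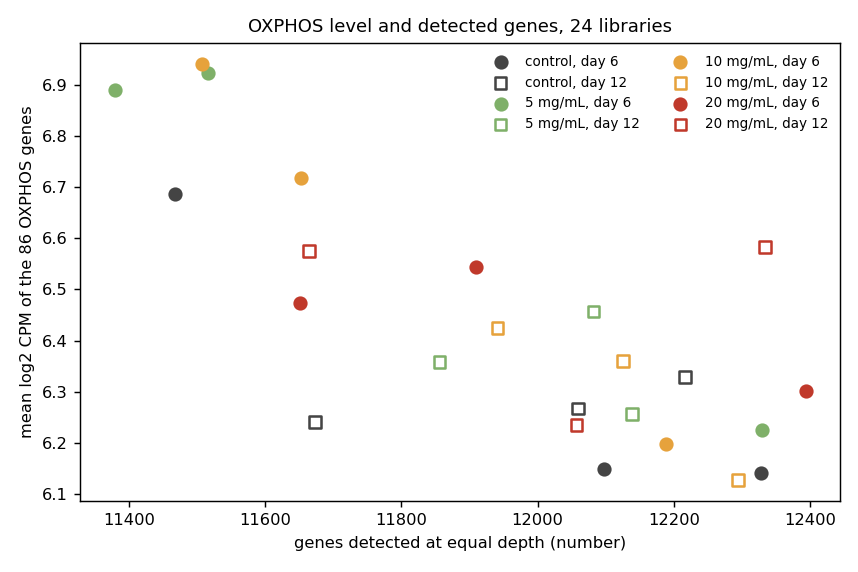
Mean log2 CPM of the 86 OXPHOS genes (vertical axis) against how many genes were detected after thinning (horizontal axis) in each of the 24 libraries, coloured by dose, filled for day 6 and open for day 12. The 5 libraries above 6.6 all have 11652 or fewer detected genes, and all are of day 6.

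Other measures moved with the 8 libraries. Their median total was 8919230 reads against 6645960 in the other 16. Red blood cell markers summed to a median of 25914 CPM (range 11145 to 41169) against 10588 (5500 to 25821), type I markers to 9160 (8382 to 10686) against 7264 (2985 to 9574), and type II markers to 23245 (20907 to 29194) against 19659 (7343 to 24134). Pericyte and smooth muscle markers summed to 497 CPM (431 to 905) against 793 (642 to 1590). The part of depth, RNA quality or cell make-up in the OXPHOS levels was not tested, and in whole tissue fewer cells of a type cannot be told apart from less RNA per cell.

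Each dose was compared with the controls of its day, to ask whether WCSC changed the genes after 6 or 12 days. At 5 mg/mL on day 6, 73 of the 86 OXPHOS genes (84.9%) had a positive log2 fold change, against 49.1% of all genes, and their median log2 fold change was 0.38 against -0.01 for all genes. None reached the 0.05 threshold on the adjusted p-value in edgeR's quasi-likelihood test (percent of all genes called: 0), and 11 of the 86 (12.8%), all higher, had an unadjusted p under 0.05 against 2.52% of all genes in that direction. All 3 treated libraries lay above all 3 controls for 4 of the genes (4.65%), close to the 4.19% of all genes. Cmc1, which entered the set for its p-value in these libraries, is in the counts of 11 and 4 and adds no evidence to either. By complex, the median was 0.39 for complex I (32 of 36 higher), 0.22 for complex II (4 of 4), 0.43 for complex III (8 of 8), 0.45 for complex IV (11 of 14) and 0.37 for ATP synthase (14 of 17).

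Without the 8 libraries the 5 mg/mL group was replicate 3 alone, the library already seen to lie among the controls. The median was then 0.01, with 45 of the 86 genes higher. With 1 library the fit takes its spread from the other groups. With all libraries but the first control it was 0.62, and 44 genes had an unadjusted p under 0.05. The count was 45 without 5 mg/mL replicate 3, 5 without replicate 1 or replicate 2 of that dose, and 4 without control replicate 2 or 3. For these fits, and for each later fit without 1 library, the share of all genes is not reported here. In each of these fits edgeR called 0 of the 86.

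At 10 mg/mL on day 6, which was set against the same 3 controls, 75 of the 86 OXPHOS genes (87.2%) were on the higher side, against 50.2% of all genes, with a median log2 fold change of 0.30 against 0.00. Again edgeR called none (percent of all genes called: 0), and 7 of the 86 (8.14%), all higher, had an unadjusted p under 0.05, against 1.48% of all genes. The 3 treated libraries lay above the controls for 3 genes (3.49%, against 3% of all genes). Cmc1 is again in both counts. Without the 8 libraries, again with replicate 3 as the only treated library, the median was 0.00, with 43 genes higher. It was 0.11 without 10 mg/mL replicate 1 and 0.18 without control replicate 2, and 0.50 without either 10 mg/mL replicate 3 or control replicate 1. The count of 7 became 33 without control replicate 1 and 35 without 10 mg/mL replicate 3, and between 1 and 4 without each of the other 4 libraries.

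At 20 mg/mL on day 6, 56 of the 86 (65.1%, against 49.6% of all genes) were higher, with a median of 0.08. EdgeR called none (percent of all genes called: 0), and Cmc1 alone had an unadjusted p under 0.05 (1.16%, against 2.11% of all genes on the higher side). Leaving out the 8 libraries moved this comparison the other way: the median was 0.26, 71 genes were higher and 18 had an unadjusted p under 0.05, 17 of them higher, with 2 control and 2 treated libraries left. The share of all genes with such a p, in either direction, rose as well, from 4.1% with all libraries to 8.67%. Leaving out control replicate 1 alone gave a median of 0.32, with 78 genes higher and 5 such genes. The median was below 0 without control replicate 2 (-0.020, with 38 genes higher), control replicate 3 (-0.021, with 40) or 20 mg/mL replicate 1 (-0.0082, with 41), each time with 2 genes under 0.05. The direction of the set at this dose therefore turned on single libraries. Across the 3 doses of day 6 the medians were 0.38, 0.30 and 0.08 with all libraries and 0.01, 0.00 and 0.26 without the 8.

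**Figure D3:**
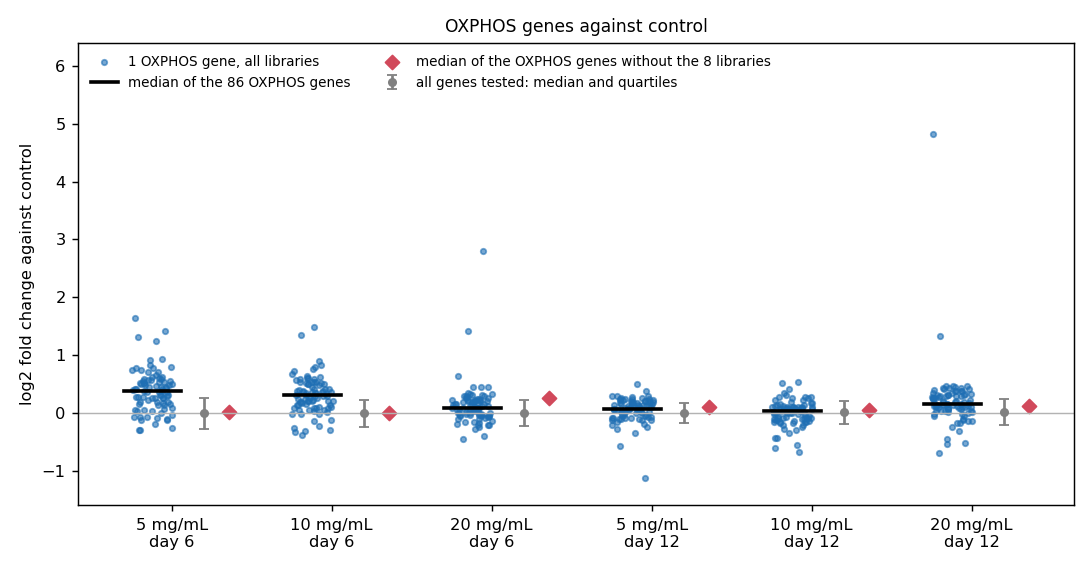
Log2 fold change against the controls of the same day (vertical axis) for the 86 OXPHOS genes (blue points, spread sideways only for legibility) at each dose and day, with their median (black line), the median and quartiles of all 11351 genes (grey) and the OXPHOS median without the 8 libraries (red diamond). The blue points sit mostly above 0 at 5 and 10 mg/mL on day 6, where the red diamonds sit at 0.01 and 0.00; the 2 highest single points, at 4.82 and 2.80, are Cox6a2.

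At day 12 the set's median was highest at 20 mg/mL. At 5 mg/mL 59 of the 86 OXPHOS genes (68.6%, against 49.7% of all genes) were higher, with a median log2 fold change of 0.07, or 0.09 without the 8 libraries. At 10 mg/mL 47 (54.7%, against 51.1%) were higher, with a median of 0.03, or 0.04 without the 8 libraries, and -0.09 with 31 genes higher without 10 mg/mL replicate 2. At 20 mg/mL 69 (80.2%, against 51.2%) were higher, with a median of 0.15, or 0.12 without the 8 libraries. In the 20 mg/mL fits without 1 library the median ran from 0.13 to 0.26, with 60 to 74 genes higher. EdgeR called none at any of the 3 doses (percent of all genes called: 0 at each). Before adjustment, 0 of the 86 had p under 0.05 at 5 mg/mL (all genes: 1.25% in either direction), against 1 lower gene at 10 mg/mL (1.16%, against 1.05% of all genes lower) and 2 higher genes at 20 mg/mL (2.33%, against 2.37% of all genes higher). DESeq2 gave 13, 8 and 1 such genes at 5, 10 and 20 mg/mL on day 6 and 0, 1 and 1 on day 12. Its shares of all genes, in either direction, were 5.57%, 3.17% and 4.82% on day 6 and 1.6%, 2.51% and 4.31% on day 12. The edgeR count of 2 at 20 mg/mL was 0 without that dose's replicate 2, 5 without its replicate 1, and 4 without control replicate 2, without control replicate 3 or without the 8 libraries. In the fit without the 8 libraries the share of all genes was 4.15%, in either direction. At 20 mg/mL all 3 treated libraries exceeded all 3 controls for 9 genes (10.5%, against 3.59% of all genes). Among these were Ndufb11, Ndufaf7, Uqcrb, Ndufb6, Ndufs8, Cox8a, Uqcrc2 and Ndufa4, with log2 fold changes from 0.03 to 0.46.

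The remaining tests asked for a trend with dose, a change between days and any difference at all. The slope in dose was positive for 38 of the 86 genes at day 6 (44.2%, against 49.6% of all genes) and for 64 at day 12 (74.4%, against 51.5%), with medians of -0.0012 and 0.0074 on the log2 scale per mg/mL. EdgeR called none of the 86 in either slope (all genes: 0.00881% at day 6 and 0 at day 12), in the mean slope over both days (0.0264%), or among the 8 groups (0), where 5 of the 86 (5.81%, against 4.18%) had an unadjusted p under 0.05. The 20 mg/mL difference at day 12 minus that at day 6 had a median of 0.09, and the day 12 controls against the day 6 controls a median of -0.08, with 25 of the 86 genes higher (29.1%, against 47.8%). EdgeR called none in either (percent of all genes called: 0 in both). Before adjustment 2 of the 86 (2.33%) had p under 0.05 in each, against 3.81% and 2.46% of all genes. The same count was 2 for the day 6 slope, 3 for the day 12 slope and 2 for the mean slope, against 4.89%, 4.36% and 3.54%. Cmc1, which came in for its p-value, is counted among the 8 groups, in the day 6 slope and in both tests between days.

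Several of these directions turned on single libraries too. The day 12 slope did not: in the fits without 1 library its median ran from 0.0049 to 0.0115, with 55 to 69 genes positive. Without control replicate 1 of day 6 the median of the 20 mg/mL difference between days was -0.18, with 27 of the 86 genes higher, and that of the day 12 against the day 6 controls was 0.18, with 65 higher. Positive day 6 slopes numbered 69 without the same library and 25 without control replicate 3. Without the 8 libraries the 2 medians between days were -0.13 and 0.13, and the median day 6 slope was 0.014, with 71 genes positive. An unadjusted p under 0.05 was then found for 15 higher genes and 1 lower in the day 6 slope (9.36% of all genes in either direction) and for 13 higher and 1 lower in the mean slope (7.29%). It was found for 3 higher genes in the day 12 slope (5.2%), for 2 higher and 6 lower in the difference between days (6.06%), and for 8 higher and 2 lower between the control groups (5.69%). EdgeR called 0 of the 86 in each of these fits. Among the 8 groups the count was 5 with and without the 8 libraries. It was 23 without 5 mg/mL replicate 3, 19 without 10 mg/mL replicate 3, 11 without control replicate 1 and 8 without 20 mg/mL replicate 1, all of day 6, and 3 without 20 mg/mL replicate 2 of day 12.

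How small a difference could have been seen is set by the spread between replicates. The median standard error of a log2 fold change at 20 mg/mL on day 6 was 0.28 for the OXPHOS genes and 0.33 for all genes tested, and the median biological coefficient of variation was 0.247 and 0.283. For a single gene, differences as small as most of the set's medians were therefore within about 1 standard error.

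Among the complex I genes, those with the smallest p-values belonged to the accessory subunits, which surround the catalytic core. Ndufs5 was at 55.4, 24.8 and 22.4 CPM in the day 6 controls, 63.9, 82.0 and 36.1 at 5 mg/mL, 65.0, 51.9 and 27.5 at 10 mg/mL and 43.6, 37.8 and 30.5 at 20 mg/mL. The third replicates of the treated groups lay between the lower and the highest control. Its log2 fold change at 5 mg/mL was 0.83 (SE 0.33, unadjusted p = 0.0197, adjusted p = 0.898, edgeR). Ndufb2 was at 90.3, 51.8 and 58.5 CPM in those controls and 142.0, 141.0 and 61.6 at 5 mg/mL, a difference of 0.78 (SE 0.31, adjusted p = 0.898, edgeR). In both genes the third treated library fell inside the range of the controls.

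Ndufa7 at 10 mg/mL on day 6 was at 342.6, 235.3 and 124.1 CPM, against 200.0, 76.8 and 117.7 in the controls. The log2 fold change was 0.83 (SE 0.34, adjusted p = 0.990, edgeR), and the groups overlapped. Ndufb11, a membrane-arm subunit, was at 204.2, 213.5 and 212.3 CPM at 20 mg/mL on day 12 against 158.6, 150.7 and 148.8 in the controls, with tight groups that did not overlap and a log2 fold change of 0.46 (SE 0.25, adjusted p = 0.998, edgeR). Ndufv3, a small subunit of the NADH-binding module, was the only OXPHOS gene on the lower side with an unadjusted p under 0.05 against controls. It was at 38.5, 40.6 and 44.1 CPM at 10 mg/mL on day 12 and 69.6, 48.8 and 48.4 in the controls, all lower, with a log2 fold change of -0.44 (SE 0.20, unadjusted p = 0.0428, adjusted p = 1.00, edgeR). At 5 mg/mL on day 12, Ndufs3 and Ndufs7, core subunits of the arm that carries electrons to coenzyme Q, differed by 0.26 (SE 0.24) and -0.24 (SE 0.22), with all groups overlapping. Ndufv1, which binds NADH and FMN in the core, stayed between 64.9 and 108.6 CPM in all 24 libraries.

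The complex I assembly factors had 3 of 6 genes higher at 5 mg/mL on day 6 and 5 of 6 at 10 mg/mL. Ndufaf6 was at 3.11, 1.93 and 2.14 CPM in the day 6 controls and 8.77, 5.19 and 6.27 at 10 mg/mL. These groups did not overlap, and the log2 fold change was 1.48 (SE 0.56, adjusted p = 0.990, edgeR). At 5 mg/mL it was at 10.1, 1.73 and 6.14 CPM, on both sides of the controls. Ndufaf5, a hydroxylase of a core subunit, was at 22.7, 35.6 and 8.31 CPM at 5 mg/mL on day 6 against 16.5, 8.81 and 9.72 in the controls (log2 fold change 0.93, SE 0.41, adjusted p = 0.898, edgeR), and among the 8 groups its unadjusted p was 0.0209.

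Ndufaf1, an early assembly factor, was at 5.00, 3.06 and 2.53 CPM at 5 mg/mL on day 6 against 5.84, 2.48 and 4.86 in the controls. It was on the lower side there, by -0.30 (SE 0.54), and by -0.58 (SE 0.54) at 5 mg/mL on day 12, with overlap both times.

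Ndufaf7, an arginine methyltransferase of complex I assembly, was on the lower side at 20 mg/mL on day 6, when 56 of the 86 genes were higher. It was at 31.4, 21.9 and 20.2 CPM in the day 6 controls and 20.0, 15.3 and 18.4 at 20 mg/mL, all lower than the controls. The log2 fold change was -0.45 (SE 0.22, unadjusted p = 0.0538, adjusted p = 1.00, edgeR), or -0.23 without control replicate 1 and -0.15 without the 8 libraries. In the day 12 controls it was lower still, at 16.2, 14.1 and 12.8 CPM. The day 12 controls lay below the day 6 controls by -0.77 (SE 0.22, unadjusted p = 0.0024, adjusted p = 1.00, edgeR), and the groups did not overlap.

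Complex II is the link to the tricarboxylic acid (TCA) cycle. Sdhd was at 32.6, 34.2 and 31.9 CPM in the day 6 controls and 88.0, 101.8 and 73.5 at 5 mg/mL, so the groups were far apart, with a log2 fold change of 1.42 (SE 0.52, unadjusted p = 0.0122, adjusted p = 0.898, edgeR). At 10 mg/mL it was at 44.2, 25.7 and 44.0 and at 20 mg/mL at 71.7, 21.6 and 42.5, on both sides of the controls. The day 12 controls, at 9.66, 51.6 and 91.8, spanned nearly the whole range of the study. Without the 8 libraries, with 1 library left at 5 mg/mL, the difference was 1.14. Sdha, the flavoprotein that oxidises succinate, was at 118.5, 78.4 and 86.1 CPM in the day 6 controls and 122.9, 100.2 and 67.9 at 5 mg/mL, and Sdhb, the iron-sulfur subunit, at 175.7, 127.9 and 129.0 against 210.0, 187.8 and 120.3. Both overlapped their controls.

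No complex III gene had an unadjusted p under 0.05 against controls at any dose. Uqcrc1, a core protein, was at 139.2, 110.9 and 94.4 CPM in the day 6 controls, 182.0, 103.9 and 94.7 at 5 mg/mL and 101.3, 106.6 and 74.5 at 20 mg/mL. Its difference at 20 mg/mL was -0.29 (SE 0.29, adjusted p = 1.00, edgeR). Uqcrfs1, the Rieske iron-sulfur protein, was at 72.4, 35.8 and 46.9 CPM in the day 6 controls and at 20.3, 75.6 and 63.3 in those of day 12, where its lowest value was in the same library as that of Sdhd. Uqcrh, a hinge protein, had the smallest p-value of the whole set at 5 mg/mL on day 12, where it was at 301.6, 319.9 and 236.1 CPM against 216.1, 259.7 and 225.0 (log2 fold change 0.29, SE 0.25, adjusted p = 1.00, edgeR). Uqcr11, a small subunit, differed by 0.23 (SE 0.21) in the same comparison.

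In complex IV, Cox4i1, the general form of subunit 4, was at 123.9, 104.8 and 89.8 CPM in the day 6 controls, 216.4, 209.8 and 107.9 at 5 mg/mL and 214.6, 141.6 and 104.6 at 10 mg/mL. Again the third replicates lay among the controls, and the first 2 above them. The log2 fold changes were 0.75 (SE 0.26, unadjusted p = 0.0078, adjusted p = 0.898, edgeR) and 0.53 (SE 0.26, adjusted p = 0.990, edgeR). Without the 8 libraries the first was 0.14. Cox7c was at 275.5, 243.3 and 227.8 CPM in the controls and 531.8, 912.8 and 315.3 at 5 mg/mL, with no overlap and a difference of 1.24 (SE 0.46, adjusted p = 0.898, edgeR), while the day 12 controls ran from 95.1 to 439.1. Cox7a2 and Cox7b, general forms of 2 small subunits, were split by library. Cox7b was at 300.2, 139.5 and 118.7 CPM in the day 6 controls, 412.6, 423.5 and 133.9 at 5 mg/mL and 511.6, 313.0 and 138.0 at 10 mg/mL. Cox7a2 was at 186.9, 85.8 and 88.2 in those controls and 256.2, 272.1 and 91.1 at 5 mg/mL. Their log2 fold changes at 5 mg/mL were 0.80 (SE 0.42) and 0.78 (SE 0.39), with the third treated replicate below the first control in both. Cox5a, which with Cox5b and the Cox4 subunit forms part of the first assembly step, was among the most scattered, at 66.8, 160.7 and 37.8 CPM in the day 12 controls and 40.2, 47.7 and 94.2 at 20 mg/mL.

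Cox4i2 was a gene whose differences ran against those of its partner. It was at 41.1, 48.8 and 67.9 CPM in the day 6 controls and 25.7, 44.4 and 51.0 at 10 mg/mL. At day 12 it was at 65.7, 30.5 and 38.4 in the controls, 43.3, 34.9 and 50.6 at 5 mg/mL, 33.7, 29.4 and 42.5 at 10 mg/mL and 36.8, 24.5 and 22.1 at 20 mg/mL. The highest 20 mg/mL library overlapped the controls, the log2 fold change at that dose was -0.69 (SE 0.34, unadjusted p = 0.0537, adjusted p = 0.998, edgeR) and the day 12 slope was -0.04 on the log2 scale per mg/mL (SE 0.02, unadjusted p = 0.0367, adjusted p = 0.991, edgeR). The difference was -0.31 without control replicate 1 and -0.16 without the 8 libraries. Cox4i1 at day 12 stood at 132.5, 94.7 and 111.4 CPM in the controls and 125.7, 129.6 and 127.2 at 20 mg/mL.

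The muscle forms were high in 1 library. Cox6a2, the heart and skeletal muscle form of subunit 6A, was at 105.1 CPM in 20 mg/mL replicate 2 of day 12. It was at 7.78 in 20 mg/mL replicate 3 of day 6 and 3.30 in control replicate 2 of day 12, and between 0 and 1.30 in the other 21. The other 2 libraries of its own group were at 0.20 and 0.99. Cox8b, the muscle form of subunit 8, was at 67.2 CPM in the same library, at 14.1 and 25.3 in the other 2 of that group, and between 5.88 and 32.3 in the remaining 21. The general forms did not share this: Cox6a1 was at 416.0 CPM and Cox8a at 191.5 in that library, near their day 12 controls of 447.4, 403.5 and 407.2 and of 183.2, 186.3 and 167.1.

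The fitted differences at 20 mg/mL on day 12 were 4.82 for Cox6a2 (SE 1.73, unadjusted p = 0.0105, adjusted p = 0.998, edgeR) and 1.34 for Cox8b (SE 0.46, unadjusted p = 0.00783, adjusted p = 0.998, edgeR). Without replicate 2 they were -0.96 and 0.50, and no OXPHOS gene then had an unadjusted p under 0.05 at this dose. Among the 8 groups Cox6a2 had the smallest p of the set (unadjusted p = 0.000453, adjusted p = 0.272, edgeR), and the unadjusted p was 0.51 without that library and 0.846 under limma voom with sample quality weights. The same library stood apart in several marker lists. Of heart muscle markers, 12 genes summed to 3520 CPM there, against 64.8 and 33.9 in the other libraries of the group, 48.7 to 168.5 in the day 12 controls and a median of 77.8 over all 24. Of the 12, 11 had reads there (Actc1 1046 CPM, Tnni3 658, Myh6 502, Myl7 430), and the ventricular marker Myl2 was at 0. Of 7 fat markers, Adipoq was at 84.5 CPM there, Lep at 5.65 and Cfd at 144.2, each the highest of the 24. The rest of the list did not stand out. Lipe was at 284.6 CPM there, within 240.5 to 727.8 over the 24. Plin1 was at 1.56 (0 to 2.80 over the 24), Ucp1 at 0.39 (0 to 1.01) and Cidea at 0. The list's sum of 521 CPM lay inside the range of 259 to 746. The library also had the lowest sums of type II (7343), type I (2985) and endothelial markers (959) and the highest of pericytes and smooth muscle (1590). The part of these other tissues in the Cox6a2 and Cox8b values was not tested.

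**Figure D4:**
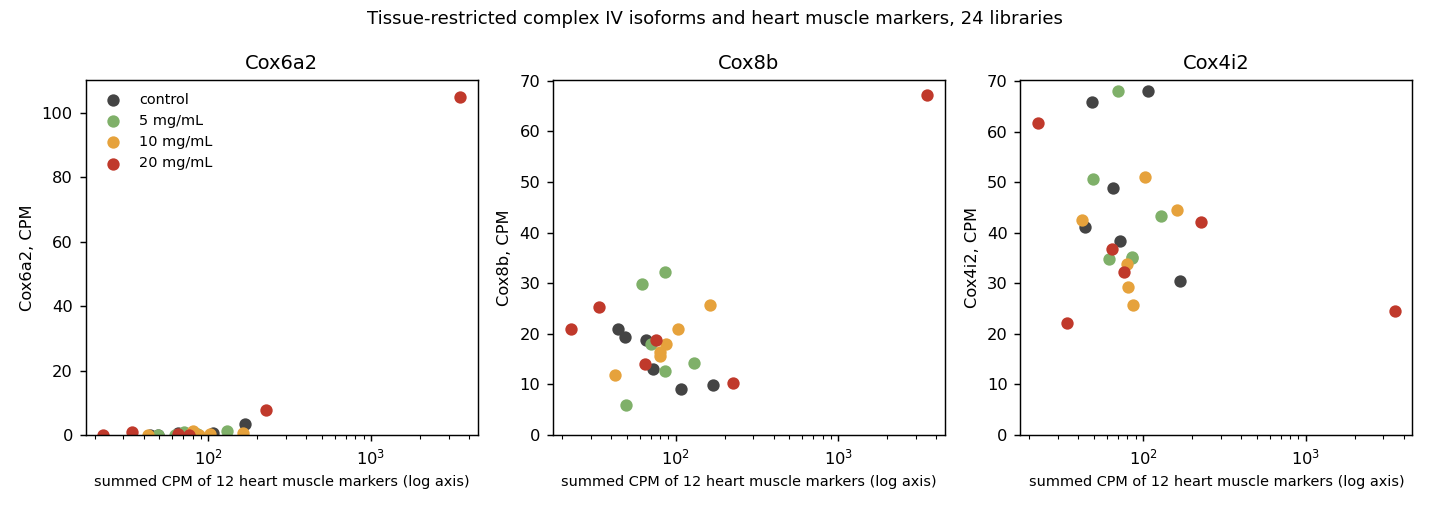
CPM of Cox6a2, Cox8b and Cox4i2 (vertical axes, 1 panel each) against the summed CPM of 12 heart muscle markers (horizontal log axes) in the 24 libraries, coloured by dose. The 1 library at 3520 CPM of heart markers holds the highest Cox6a2 (105.1) and Cox8b (67.2) and one of the lowest Cox4i2 values (24.5).

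The other tested tissue-restricted forms had few reads, 11 to 62 per library for Ndufa4l2 and 10 to 106 for Cox6b2. Ndufa4l2, a form of Ndufa4 known as hypoxia-inducible, lay between 1.87 and 7.05 CPM in the 24 libraries, and Cox6b2, a testis-enriched form, between 2.01 and 13.0. Cox6b2 exceeded its controls in every 10 mg/mL library of day 6, at 8.65, 6.58 and 6.56 CPM against 5.71, 6.20 and 6.15, with a log2 fold change of 0.27 (adjusted p = 0.990, edgeR).

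The ATP synthase median at 5 mg/mL on day 6, 0.37, was near the 0.38 of the whole set. Atp5b, the catalytic beta subunit, was at 808.2, 416.2 and 460.3 CPM in the day 6 controls, 939.2, 641.2 and 455.2 at 5 mg/mL and 510.2, 615.5 and 664.9 at 20 mg/mL on day 12, where its controls were at 530.2, 487.4 and 478.3. Its partner Atp5a1 did not follow, at 105.4, 86.9 and 94.4 in the day 6 controls and 103.9, 113.4 and 80.4 at 5 mg/mL. Atp5d, the delta subunit of the central stalk, was at 72.4, 67.1 and 70.9 CPM in the day 6 controls, 109.7, 95.7 and 74.1 at 5 mg/mL and 91.8, 93.3 and 73.0 at 20 mg/mL. Both treated groups lay wholly above the controls, by log2 fold changes of 0.41 (SE 0.18, adjusted p = 0.898, edgeR) and 0.29 (SE 0.18, adjusted p = 1.00, edgeR), and at day 12 the 10 mg/mL difference was -0.24. Atp5g3, one of the genes for the membrane ring subunit c, was at 476.0, 686.0 and 627.0 CPM at 20 mg/mL on day 12 against 373.5, 512.0 and 437.4 in the controls, which overlapped (0.44, SE 0.25, adjusted p = 0.998, edgeR). Atp5f1, a peripheral stalk subunit, was at 210.6, 116.8 and 118.7 CPM in the day 6 controls and 329.9, 216.9 and 136.5 at 10 mg/mL (log2 fold change 0.62, SE 0.28, adjusted p = 0.990, edgeR).

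Cmc1, which holds the newly made Cox1 core subunit of complex IV in an early assembly step, had all treated libraries above its controls at every dose of day 6. The 3 doses share the same 3 controls, and the gene entered the set for its p-value in these libraries. The share of all genes above the controls at every dose of day 6 is not reported here. It was at 8.44, 6.61 and 11.7 CPM in the day 6 controls, 18.4, 43.1 and 22.6 at 5 mg/mL, 36.7, 19.1 and 12.1 at 10 mg/mL and 18.2, 21.6 and 31.7 at 20 mg/mL. All 9 treated libraries lay above the 3 controls, the lowest of them at 12.1 against the highest control at 11.7. At day 12 it was at 13.8, 16.7 and 15.4 CPM in the controls, 15.0, 15.0 and 17.2 at 5 mg/mL, 15.1, 15.8 and 12.2 at 10 mg/mL and 14.3, 14.2 and 14.0 at 20 mg/mL. These 12 libraries lay in a narrow band, with every dose overlapping its controls, above all of the day 6 controls and below most of the day 6 treated libraries.

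The log2 fold changes of Cmc1 at day 6 were 1.65 (SE 0.35), 1.34 (SE 0.35) and 1.42 (SE 0.35) at 5, 10 and 20 mg/mL, all against the same 3 controls. EdgeR called none of them. DESeq2 called Cmc1, alone of the 86 genes, at 5 mg/mL and among the 8 groups. Since the gene was chosen for its p-value in these libraries and every such test uses the same low controls, these calls support nothing. Without the 8 libraries the 3 differences were 1.29, 0.40 and 1.43, and without 10 mg/mL replicate 1 the second was 0.81. The 20 mg/mL difference at day 12 was smaller than that at day 6 by 1.53 (SE 0.50), and the day 12 controls were higher than those of day 6 by 0.78 (SE 0.35).

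**Figure D5:**
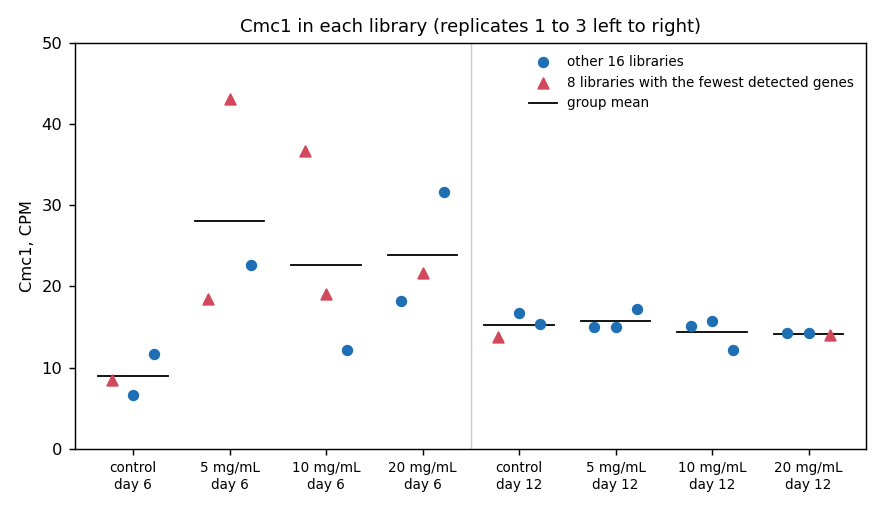
Cmc1 in CPM (vertical axis) in each library, by dose and day, with replicates 1 to 3 from left to right, triangles for the 8 libraries of lowest gene detection and lines for group means. The 3 day 6 controls, from 6.61 to 11.7, are the lowest libraries of the study, and the 12 day 12 libraries lie between 12.2 and 17.2.

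Genes that serve OXPHOS but fall outside the rule were read from 5 lists, and edgeR called none of their members in any test. Among all genes tested, between 49.1% and 51.2% were higher in each comparison of a dose with its controls. Of 33 assembly factors of the respiratory complexes, 27 were higher at 5 mg/mL and 27 at 10 mg/mL on day 6 (median log2 fold changes 0.26 and 0.18), 18 at 20 mg/mL, and 16, 15 and 22 at the 3 doses of day 12. Coa7, another assembly factor of complex IV, lay above the controls in all 3 libraries at 5, 10 and 20 mg/mL on day 6, by 0.74 (SE 0.26), 0.70 (SE 0.26) and 0.90 (SE 0.26, unadjusted p = 0.00247, adjusted p = 0.893, edgeR), and by 0.55 at 5 mg/mL on day 12. As for Cmc1, the share of all genes above the controls at every dose of day 6 is not reported here. Cox17, a copper chaperone of complex IV, was higher by 1.05 (SE 0.50) at 5 mg/mL on day 6 (adjusted p = 0.898, edgeR).

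Of 16 genes of electron carriers and coenzyme Q synthesis, 11 were higher at 5 and at 10 mg/mL on day 6 and 4 at 20 mg/mL. At day 12 the counts at 5, 10 and 20 mg/mL were 7, 9 and 10. Etfa, which feeds electrons from fatty acid oxidation, was higher by 1.11 (SE 0.50) at 5 mg/mL (adjusted p = 0.898, edgeR). Of 17 TCA cycle genes, 14, 12 and 11 were higher at 5, 10 and 20 mg/mL on day 6, with medians of 0.15, 0.20 and 0.06. At day 12 the counts were 10, 11 and 15, with medians of 0.12, 0.13 and 0.24. Fumarate hydratase (Fh) was higher by 1.20 (SE 0.51) and Ogdh lower by -1.42 (SE 0.62) at 5 mg/mL on day 6 (adjusted p = 0.898 for both, edgeR).

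Of 14 regulators of mitochondrial gene expression, 4, 6 and 8 were higher at 5, 10 and 20 mg/mL on day 6, with medians of -0.18, -0.05 and 0.18. At day 12 the counts were 7, 7 and 6. Pprc1, a coactivator related to PGC-1alpha, lay above the day 12 controls at 10 and 20 mg/mL by 0.76 (SE 0.29) and 0.75 (SE 0.29) (adjusted p = 1.00 and 0.998, edgeR), and Ppargc1b below them by -1.21 (SE 0.58) at 10 mg/mL (adjusted p = 1.00, edgeR). Of 21 genes of mitochondrial transport, uncoupling and stress, 13, 12 and 13 were higher at 5, 10 and 20 mg/mL on day 6. At day 12 the counts were 13, 10 and 15. The uncoupling protein Ucp3 was higher by 1.76 (SE 0.74) at 20 mg/mL on day 12 (adjusted p = 0.998, edgeR).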

How the data were processed

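Lung RNA of 24 samples was extracted with Trizol and 500 ng of total RNA was made into Lexogen QuantSeq libraries, per the labels' protocols. Bowtie2, bedtools and build rn6 are named in the submitters' processing notes; their versions, the annotation, the strand setting and the treatment of reads with several matches were not stated. As deposited, the files give raw read counts per gene symbol, whole numbers whose totals differ between libraries.

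Each file had 17048 lines. The 149 symbols on more than 1 line (316 lines, 2.48% of counts) were left out, and none was an OXPHOS gene. Counts were filtered with edgeR's filterByExpr (minimum count 10), scaled by TMM (factors 0.814 to 1.11), and fitted in 1 quasi-likelihood model of the 8 group means over 24 samples (edgeR 4.0.16, R 4.3.3). The 12 tests were each dose against the control of its day, the slope in dose on each day and their mean, the 20 mg/mL difference between days, control day 12 against day 6, and any difference among the groups. P-values were adjusted by Benjamini and Hochberg over all 11351 genes, at a threshold of 0.05. With 3 samples against 3, an exact permutation test could not go below p = 0.10, so none was used. The procedure was also run on simulated counts, and the outcome is not reported here. Their noise was drawn gene by gene, so they held no shift shared by many genes of a library. The alternatives were RLE and upper-quartile scaling, a filter of 1 read only, DESeq2 1.42.0, limma 3.58.1 (voom with sample quality weights), only the groups compared, the replicate number as a block, detected genes as a covariate, repeated symbols summed, leaving out the 8 libraries of lowest gene detection, and without each library in turn.

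The OXPHOS genes, the marker and pathway lists and the tests were chosen with earlier results of these data known. The genes named were any that passed the threshold, the 3 with the smallest p in each direction of each test (6 for the test among groups), Cmc1, the tissue-restricted forms with their general partners, the Sdh genes and 7 core subunits (Ndufs1, Ndufv1, Uqcrc1, Uqcrfs1, Cox5a, Atp5a1, Atp5b); Ndufs5, Cox7c, the genes named for motifs, for not overlapping with controls or for their highest library, and the pathway genes were chosen after their values were seen. Single results of some genes are not reported here.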

Additional observations from a re-analysis of the deposited data

Results flagged for a closer look

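The 20 mg/mL difference of Ndufaf7 had opposite signs on the 2 days, with all 3 treated libraries below the controls at day 6 and all 3 above them at day 12. The log2 fold change was -0.45 at day 6 and 0.38 at day 12, where the gene was at 16.3, 21.2 and 18.6 CPM against 16.2, 14.1 and 12.8. A test of the difference itself gave 0.83 (SE 0.32, unadjusted p = 0.0153, adjusted p = 1.00, edgeR). The 20 mg/mL libraries of both days lay between 15.3 and 21.2 CPM, and the control groups differed by -0.77 on the log2 scale.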

How the results depend on the processing

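With 3 samples per group, differences near the median standard error of 0.28 were not detectable for a single OXPHOS gene. In the 12 tests, the count of 0 called by edgeR held under every alternative but DESeq2, which called 1 of the 86 genes at 5 mg/mL on day 6 and 1 among the 8 groups. The OXPHOS median moved by more than the 0.297 between replicates only without the 8 libraries, to 0.0099 at 5 mg/mL and 0.0033 at 10 mg/mL on day 6. These values turned sign under an alternative, and the cause was not tested: under voom, Ndufaf1 at 5 mg/mL on day 6 (0.13), Atp5s at 20 mg/mL on day 6 (0.19) and the day 6 slope of Cox6a2 (-0.040), and, without the 8 libraries, Cox4i2 at 5 mg/mL on day 6 (0.21), Atp5s at 20 mg/mL on day 6 (0.017), Ndufs7 (0.054) and Cmc1 (-0.024) at 5 mg/mL on day 12, and Ndufv3 for the 20 mg/mL difference between days (0.12). Leaving out 1 library, the set's median crossed 0 at 20 mg/mL on day 6 (-0.021 to 0.32), at 10 mg/mL on day 12 (-0.088 to 0.090), for the day 6 slope (-0.0050 to 0.0092), for the 20 mg/mL difference between days (-0.18 to 0.20) and between the control groups (-0.18 to 0.18). The log2 range also crossed 0 for Cox4i2 (-0.59 to 0.029) at 5 mg/mL and Atp5s (-0.67 to 0.30) at 20 mg/mL on day 6, for Ndufs7 (-0.41 to 0.051) and Cmc1 (-0.026 to 0.11) at 5 mg/mL, Cmc1 (-0.16 to 0.017) at 10 mg/mL, and Cox5a (-1.01 to 0.23) and Cox6a2 (-0.96 to 7.10) at 20 mg/mL on day 12, for the slope of Cox6a2 on day 6 (-0.23 to 0.17) and day 12 (-0.033 to 0.35), and for Sdhd between the control groups (-0.10 to 1.13).

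Whether the replicate numbers shared by the groups pair the samples could not be told. The deviations of same-numbered samples of a day correlated from -0.18 to 0.59, with a median of 0.06 and 14 of 36 pairs over 0.1. Those of differently numbered samples correlated from -0.52 to 0.38, with a median of -0.07 and 16 of 72 pairs over 0.1. Of the 24 samples, 11 correlated best with their own number. With the replicate block edgeR called 0 OXPHOS genes in all 12 tests, and the count with an unadjusted p under 0.05 was 28, 18 and 2 at 5, 10 and 20 mg/mL on day 6 and 20 among the 8 groups, against 11, 7, 1 and 5 without it. The shares of all genes were 7.51%, 5.31%, 5.22% and 6.49% with the block and 4.71%, 2.72%, 4.1% and 4.18% without it, in either direction. Under voom with quality weights the 3 day 6 medians were 0.57, 0.50 and 0.28 and the counts 50, 51 and 15. The shares of all genes under voom were 19.6%, 25.7% and 11.2%, in either direction. Voom therefore also put more of all genes under 0.05 than the main fit did, with its 4.71%, 2.72% and 4.1%. With only the groups compared in the fit, the counts at 5 and 10 mg/mL on day 6 were 4 and 2, against 3.02% and 1.61% of all genes.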
